A study of Danio rerio with 4 samples.

Results

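The enzymes of glycolysis and of the citric acid cycle were followed in sorted cells of the zebrafish embryo. The set was given as 38 zebrafish gene symbols, 27 for glycolysis (lactate dehydrogenase included) and 11 for the citric acid cycle with the pyruvate dehydrogenase subunits that feed it. The symbols were listed with earlier results of these data known. A symbol was matched to a measured gene ID by name, ignoring case, or by a synonym that belongs to 1 gene, and no measured value entered this matching. In this way 20 symbols found 21 of the 25873 gene IDs, 10 for glycolysis and 11 for the cycle (the symbol fh is carried by 2 IDs). A further 14 symbols, all glycolytic, form 7 pairs of paralogs whose 2 IDs carry the same human-style name (GPI, PFKL, PFKM, ALDOA, TPI1, ENO1 and PKM), so that each of these 14 IDs is a member but cannot be assigned to the a or b paralog. They were added after the data were seen, are described by ID and are kept apart in the counts. The symbols pfkpa, aldocb, pgk1 and mdh1aa had no ID of their own.

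ZsYellow-positive cells were compared with ZsYellow-negative cells of Tg(nkx2.5:ZsYellow) embryos, a laboratory strain in which nkx2.5 regulatory sequence drives a yellow fluorescent protein, at 14 to 16 somites. Both fractions carry the transgene, were sorted from the same embryos, and had 2 libraries each of polyA RNA. The positive fraction was labelled as cardiopharyngeal progenitors and cardiomyocytes. The negative fraction is everything else in the embryo, so each value for it is an average over many tissues.

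Glycolysis splits glucose into pyruvate in the cytosol and yields a little ATP on the way, and lactate dehydrogenase turns pyruvate into lactate when the NAD+ has to be restored without oxygen. Pyruvate that enters mitochondria is made into acetyl-CoA by the pyruvate dehydrogenase complex and oxidised in the citric acid cycle, which hands electrons to the respiratory chain. The embryonic heart is known for its use of glycolysis, and the adult heart for its reliance on mitochondrial oxidation. Many glycolytic steps have several genes with different tissue preferences, while most steps of the cycle have 1 enzyme that nearly all cells use.

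Library totals ran from 31996733 to 40133331 counts. The marker genes of the labelled cells were checked: of the cardiopharyngeal and cardiomyocyte list, 10 of 10 tested genes were higher in positive cells, and nkx2.5 had 332 and 437 TPM (a transcript level corrected for length and scaled to the same total in each library) in the positive libraries, against 5.05 and 4.48 TPM in the negative libraries. Markers of presomitic mesoderm (6 of 6), erythroid cells (6 of 6) and neural tissue (5 of 5) were lower in positive cells, and 4 of 5 endothelial markers were higher. Other lists were mixed: 1 of 5 epidermal markers was lower and 0 were higher, and of 7 markers of the hatching gland and yolk syncytial layer 3 were lower and 1 (cd63) was higher. The summed level of the erythroid list was 197.1 and 186.3 TPM in the positive libraries, against 2589 and 2386 TPM in the negative libraries, that of the neural list 272 and 272.2 TPM against 795.9 and 653.2 TPM, and that of the endothelial list 479.7 and 670.3 TPM against 442.3 and 365.8 TPM. The part of these cell types in the results for the enzymes was not tested. The positive replicates differed more from each other than the negative ones did. Of 7395 genes with a mean of at least 10 TPM, 3.39% differed over 2-fold within the positive pair and 0.892% within the negative pair. Nothing in the labels says that the replicates came from separate collections, so p-values measure the spread between these libraries, which may be technical.

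The quasi-likelihood test of edgeR, with Benjamini-Hochberg adjustment over all genes tested and a call at an adjusted p under 0.05, called 3 of the 21 matched members: hk1 was higher in positive cells, and ldhba and pgam2 were lower. That is 14.3% of the members, near the 17.1% that the same rule called over all 19084 genes tested (9.02% higher and 8.07% lower). All 3 calls were in glycolysis, where 1 of 10 members was higher and 2 were lower. An unadjusted edgeR p under 0.05 was reached by 5 of these 10 (hk1, gapdh, pgam2, eno3 and ldhba), beside 30.2% of all genes tested. In the cycle 0 of 11 were called, by edgeR as well as by DESeq2 and by limma on log2(TPM + 1) and on log2(TPM + 0.1), and 1 (ogdha) had an unadjusted p under 0.05. Of the 11 pair IDs with enough counts to test, edgeR, DESeq2 and both limma fits called 0, and 2 had an unadjusted p under 0.05, a level that 30.2% of all genes tested passed. A difference in calls between the 2 pathways was not itself tested.

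The median log2 fold change, positive over negative, was -0.02 over the 10 glycolysis members, 0.06 with the pair IDs added (21 tested) and -0.03 over the 11 cycle members, beside -0.00866 over all genes tested. Taken over the 4 pairings of 1 positive with 1 negative library, the median ran from -0.50 to 0.08 for the glycolysis members and from -0.08 to -0.02 for the cycle members. In the cycle 10 of 11 members lay within 0.5 of 0 on the log2 scale, and in glycolysis 5 of 10 (13 of 21 with the pair IDs). The share of all genes within this band was not computed, so these counts have no background beside them. By TPM, the positive libraries were both above the negative ones for 3 glycolysis and 2 cycle members, and below them for 4 and 2. The groups overlapped for 3 and 7. Over all genes tested, 54.9% did not overlap, 24.9% being above and 30% below. In these bulk samples fewer cells that express a gene and less of its RNA per cell cannot be told apart.

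**Figure D1:**
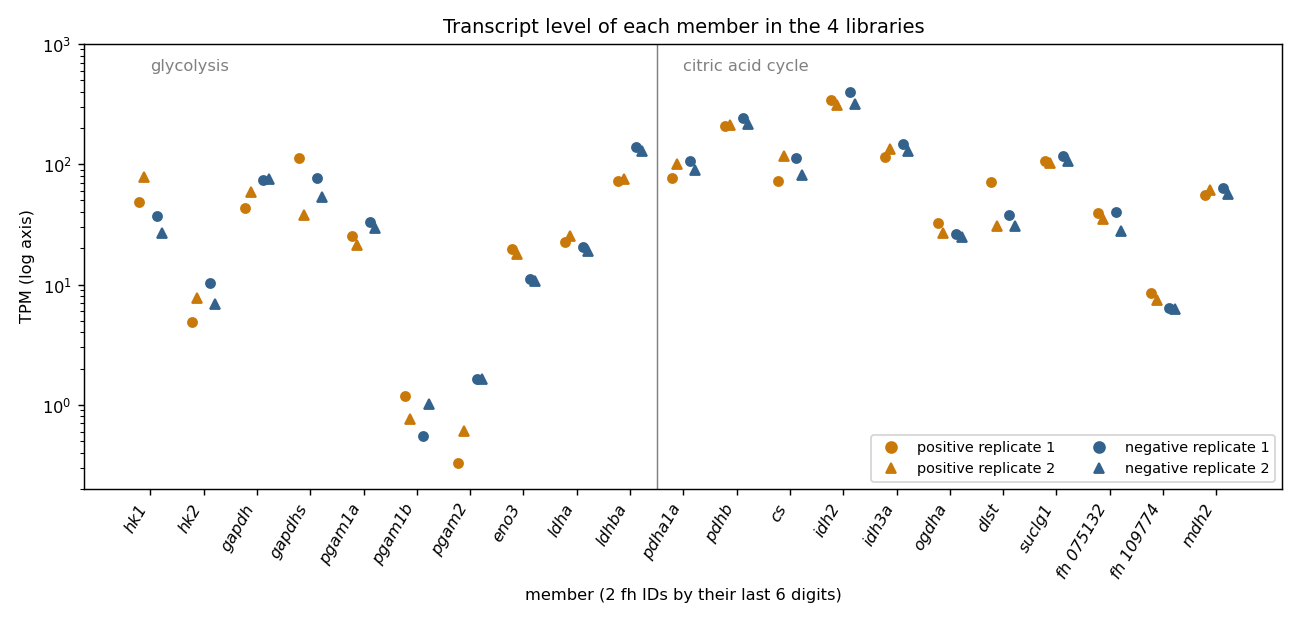
Transcript level (TPM, log axis) of the 21 matched members, with glycolysis left and the citric acid cycle right of the vertical line; each point is 1 library, orange for positive and blue for negative cells, with circles for replicate 1 and triangles for replicate 2. Both positive libraries lie above both negative ones for hk1, eno3 and ldha, and below them for gapdh, pgam1a, pgam2 and ldhba. Of the cycle members, ogdha and fh ENSDARG00000109774 show them above, and pdhb and suclg1 below. In the same plot gapdhs shows the positive replicates on either side of the negative ones, and dlst shows positive replicate 1 above the other 3 libraries.

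Hexokinases trap glucose in the cell as glucose 6-phosphate. The broadly expressed gene hk1 had 49.0 and 77.8 TPM in the positive libraries, against 36.9 and 26.9 TPM in the negative libraries. Both positive libraries were higher than both negative ones, although the positive replicates differed from each other by more than the lower of them differed from the nearest negative library. The mean was 63.4 ± 20.4 TPM in positive cells and 31.9 ± 7.08 TPM in negative cells (SD, n = 2 each). On the counts, hk1 was higher by a log2 fold change of 1.01 (SE 0.220, adjusted p 0.0134 by edgeR). The call was lost when negative replicate 1 (1.16) or negative replicate 2 (0.88) was left out, fits in which the lone negative library is assumed to vary like the positive pair. Both fits also called a smaller share of all genes tested than the fit of all 4 libraries. That holds for each call given below as lost without a negative library. When 1 positive library was left out, the lone positive library is assumed to vary like the negative pair, whose replicates differed less. Those fits called a larger share of all genes tested than the fit of all 4 libraries. That limit holds for each call given below as gained without a positive library.

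The insulin-responsive hexokinase of mammalian muscle and fat, hk2, had 4.87 and 7.75 TPM in the positive libraries, against 10.3 and 6.90 TPM in the negative libraries, and the groups overlapped (edgeR log2 fold change -0.42, SE 0.246, adjusted p 0.296). Among the hexokinase genes outside the set, glucokinase (gck) was higher at 0.875 and 0.896 TPM in the positive libraries, against 0.295 and 0.154 TPM in the negative libraries (edgeR log2 fold change 2.04, adjusted p 0.0151). The gene hkdc1 was lower, at 0.597 and 0.701 TPM in the positive libraries, against 3.33 and 1.90 TPM in the negative libraries (edgeR log2 fold change -1.98, adjusted p 0.00294). Both were picked out after their values were seen, since their levels are under the 5 TPM set for naming. The gck call was lost without negative replicate 2, and hkdc1 was called in 12 of 12 alternatives. Of all hexokinase transcripts, hk1 made up 88.5% and 89.3% in the positive libraries, against 72.6% and 75% in the negative libraries, and hk2 made up 8.81% and 8.89%, against 20.2% and 19.2%. The 4 genes together summed to 55.3 and 87.2 TPM in the positive libraries and to 50.8 and 35.9 TPM in the negative libraries. Shares and sums of 2 libraries against 2 were not tested, since an exact two-sided permutation test cannot go below a p of 0.33.

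Glucose-6-phosphate isomerase, which makes fructose 6-phosphate, was almost entirely the ID ENSDARG00000012987 named GPI. It had 22.2 and 22.3 TPM in the positive libraries, against 19.5 and 14.1 TPM in the negative libraries (edgeR log2 fold change 0.43, SE 0.185, adjusted p 0.159). The positive libraries were the higher ones, but the difference did not pass the test. The other GPI ID, ENSDARG00000103826, had 15 and 20 counts in the positive libraries, against 2 and 14 counts in the negative libraries, too few to place it.

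Phosphofructokinase commits the sugar to glycolysis and is the main point of allosteric control. Its transcripts were scarce in both fractions: the 6 IDs named PFKL, PFKM or PFKP summed to 3.51 and 3.92 TPM in the positive libraries and to 4.59 and 2.43 TPM in the negative libraries. The most abundant of them, ENSDARG00000099755 (PFKL, the liver-type subunit), had 2.19 and 2.5 TPM in the positive libraries, between the 3.57 and 1.11 TPM of the negative libraries (edgeR log2 fold change 0.06, SE 0.434, adjusted p 0.949). The value was 1.00 without negative replicate 1 and -0.49 without negative replicate 2, called in neither, so no direction can be given. ENSDARG00000060797 (PFKM, the muscle-type subunit) had an edgeR log2 fold change of 0.30 (adjusted p 0.633). The other PFKL ID and the other PFKM ID had at most 14 counts in a library and were not tested. The 2 IDs named PFKP, 1 of which may be pfkpa, were under 0.5 TPM in every library, with log2 fold changes of 0.29 and 0.09.

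Aldolase, which cuts fructose 1,6-bisphosphate into 2 triose phosphates, was the most abundant glycolytic step. ENSDARG00000011665 (ALDOA, the muscle-type aldolase) alone had 698 and 845 TPM in the positive libraries, against 767 and 736 TPM in the negative libraries. The negative values fell between the positive ones, and the log2 fold change was 0.05 (SE 0.180, adjusted p 0.885 by edgeR). The second ALDOA ID, ENSDARG00000034470, had 24.2 and 25.3 TPM in the positive libraries, against 33.7 and 20.9 TPM in the negative libraries (edgeR log2 fold change -0.10, adjusted p 0.796). Of all aldolase transcripts ENSDARG00000011665 made up 82.7% and 85.4% in the positive libraries, against 79.4% and 80.2% in the negative libraries.

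Triosephosphate isomerase interconverts the 2 trioses. ENSDARG00000040988 (TPI1) had 33.7 and 22 TPM in the positive libraries, against 26.3 and 28.9 TPM in the negative libraries (edgeR log2 fold change 0.02, adjusted p 0.966). The second TPI1 ID, ENSDARG00000025012, had 16 and 11 counts in the positive libraries, against 23 and 54 counts in the negative libraries. Its positive libraries were the lower ones, and the log2 fold change of -1.50 (SE 0.602, adjusted p 0.129 by edgeR) was not called. Without positive replicate 1 the value was -1.95 and was called (edgeR adjusted p 0.0495), and without negative replicate 2 it was -0.69 (edgeR adjusted p 0.652).

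Glyceraldehyde-3-phosphate dehydrogenase makes the first NADH of the pathway. The usual form, gapdh, had 42.9 and 59.3 TPM in the positive libraries, against 74.0 and 75.7 TPM in the negative libraries. Both positive values were under both negative ones, but the log2 fold change of -0.54 (SE 0.188, adjusted p 0.0837 by edgeR) missed the threshold. It passed with upper-quartile factors (-0.65, edgeR adjusted p 0.0441), which move the median of all genes to -0.109, and without positive replicate 2 (-0.73, edgeR adjusted p 0.0142).

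The paralog gapdhs, known in mammals as the sperm form, had 112 and 38.0 TPM in the positive libraries, against 76.3 and 53.6 TPM in the negative libraries. The positive replicates lay on either side of the negative ones, 2.96-fold apart, and the log2 fold change was 0.31 (SE 0.429, adjusted p 0.687 by edgeR). Which positive library is kept decides its direction: gapdhs was lower without positive replicate 1 (-0.74, edgeR adjusted p 0.0123) and higher without positive replicate 2 (0.92, edgeR adjusted p 0.000397). No direction can be given for it. Both genes together summed to 155 and 97.2 TPM in the positive libraries and to 150 and 129 TPM in the negative libraries.

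Phosphoglycerate kinase makes the first ATP. No ID was matched to pgk1, and the single ID of this step is named PGK2. That name does not settle whether it is the listed pgk1, so this ID is not counted among the members. It had 14.6 and 17.0 TPM in the positive libraries, against 12.2 and 10.1 TPM in the negative libraries, with both positive values above both negative ones and a log2 difference of 0.53 on the counts (SE 0.167, adjusted p 0.0632 by edgeR) that was not called.

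Phosphoglycerate mutase moves the phosphate of 3-phosphoglycerate. Its muscle-type gene pgam2 was scarce, and lower in positive cells: it had 7 and 14 counts (0.328 and 0.611 TPM) in the positive libraries, against 38 and 40 counts (1.65 and 1.63 TPM) in the negative libraries. The groups did not overlap, and the log2 fold change was -1.91 (SE 0.503, adjusted p 0.0303 by edgeR). At these counts the call was not stable: it was lost with DESeq2 (-1.91, DESeq2 adjusted p 0.0806) and without positive replicate 1, negative replicate 1 or negative replicate 2 (edgeR adjusted p 0.103, 0.126 and 0.167), and the value shrank to -0.85 in limma on log2(TPM + 1), where it was called. Beside it, of 10 tested skeletal muscle and somite markers 7 were lower and 1 was higher in positive cells. The summed level of the 11 marker IDs was 875.6 and 874.4 TPM in the positive libraries, against 1641 and 1270 TPM in the negative libraries. The marker pvalb1 had 1 count in each positive library and 0 in both negative libraries, and was not tested. The part of muscle cells in the pgam2 result was not tested.

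The main mutase gene, pgam1a, had 25.3 and 21.2 TPM in the positive libraries, against 32.8 and 29.8 TPM in the negative libraries. Both positive libraries were the lower ones, without passing the test (edgeR log2 fold change -0.35, SE 0.189, adjusted p 0.254). Its paralog pgam1b had 1.18 and 0.767 TPM in the positive libraries, against 0.548 and 1.01 TPM in the negative libraries, with overlap (edgeR log2 fold change 0.33, SE 0.451, adjusted p 0.688), and 0.96 without negative replicate 2 but -0.12 without negative replicate 1, called in neither.

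Enolase makes phosphoenolpyruvate. The gene eno3, the muscle-type enolase, had 19.9 and 18.1 TPM in the positive libraries, against 11.2 and 10.8 TPM in the negative libraries. Replicates lay close together and the groups apart, at 19.0 ± 1.24 TPM in positive and 11 ± 0.276 TPM in negative cells (SD, n = 2 each). A log2 fold change of 0.69 (SE 0.206, adjusted p 0.051 by edgeR) just missed the threshold, and eno3 was called in 5 of 12 alternatives, DESeq2 (0.70, DESeq2 adjusted p 0.0252) among them. The enolase named ENO1 had 9.55 and 7.34 TPM (ENSDARG00000022456) in the positive libraries, against 11.9 and 8.62 TPM in the negative libraries. Its mean TPM was the lower in positive cells (8.44 against 10.3), but its log2 fold change on the counts was 0.06 (adjusted p 0.897 by edgeR). No direction can be given for this ID. The value of the second ENO1 ID, ENSDARG00000013750, was -0.92 (SE 0.456, adjusted p 0.216 by edgeR). Of all enolase transcripts eno3 made up 64.2% and 68.3% in the positive libraries, against 42.6% and 47.8% in the negative libraries.

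Pyruvate kinase ends the pathway with a further ATP. The ID ENSDARG00000099730 (PKM) had 10.7 and 10.9 TPM in the positive libraries, against 10.5 and 8.96 TPM in the negative libraries (edgeR log2 fold change 0.26, SE 0.202, adjusted p 0.446). The second PKM ID, ENSDARG00000099860, was nearly silent, with 14 and 6 counts in the positive libraries, against 1 and 0 counts in the negative libraries, and was not tested.

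Lactate dehydrogenase is built from an A subunit, which predominates in anaerobic muscle, and a B subunit, which predominates in the mammalian heart. The B gene ldhba, found through the name LDHB, was lower in positive cells: it had 72.8 and 75.8 TPM in the positive libraries, against 139 and 128 TPM in the negative libraries. Replicates were close and the groups well apart, with 74.3 ± 2.12 TPM in positive and 134 ± 7.64 TPM in negative cells (SD, n = 2 each). On the counts the log2 fold change was -0.81 (SE 0.164, adjusted p 0.00918 by edgeR), and it stayed between -0.92 and -0.77 under the 12 alternatives. It was not called without negative replicate 1 (-0.85, edgeR adjusted p 0.0531) or negative replicate 2 (-0.77, edgeR adjusted p 0.0738).

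The A gene ldha had 22.7 and 25.5 TPM in the positive libraries, against 20.5 and 19.1 TPM in the negative libraries. Its positive values were the higher ones by a little, and the log2 fold change of 0.30 (SE 0.166, adjusted p 0.265 by edgeR) was not called. The share of ldha in all lactate dehydrogenase transcripts was 23.7% and 25.1% in the positive libraries, against 12.8% and 12.9% in the negative libraries, and ldhba made up 76.1% and 74.5%, against 86.8% and 86.7%. The B gene was thus the more abundant in all 4 libraries. The step as a whole summed to 95.8 and 102 TPM in the positive libraries and to 160 and 148 TPM in the negative libraries.

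**Figure D2:**
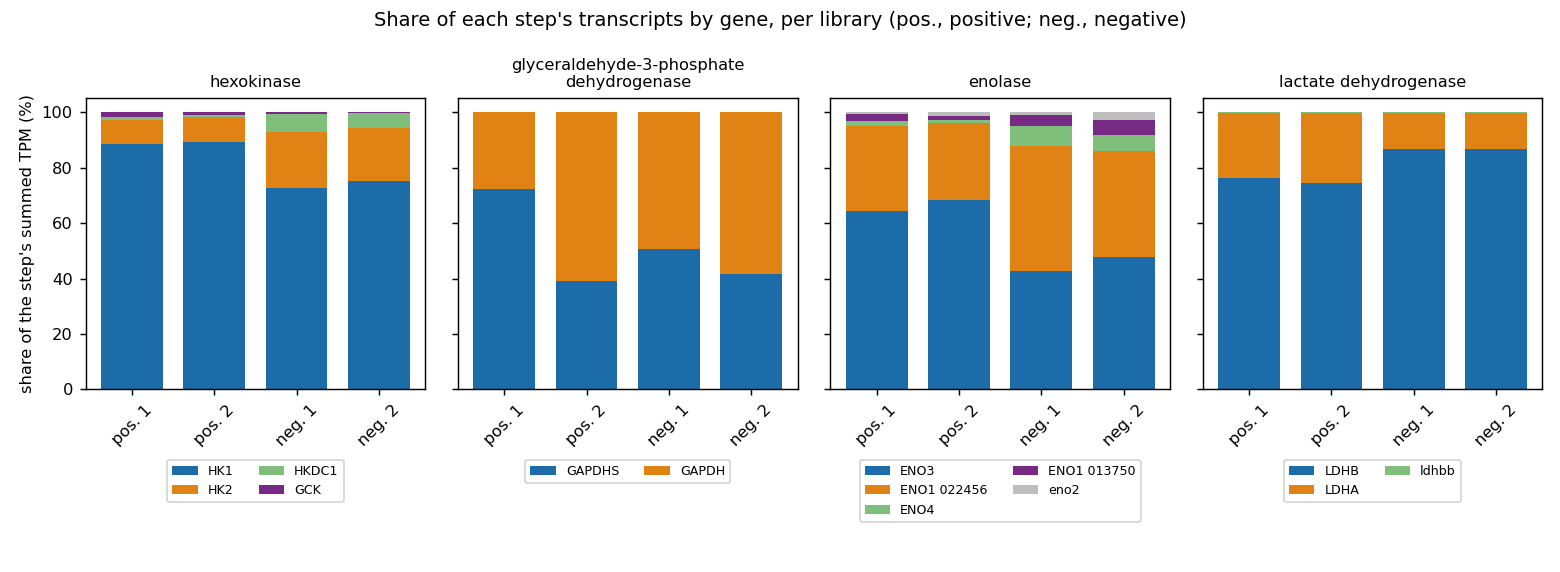
Share of each gene in the summed TPM of its step (percent), with the 2 positive libraries left of the 2 negative libraries. The steps are hexokinase, glyceraldehyde-3-phosphate dehydrogenase, enolase and lactate dehydrogenase. The share of gapdhs is 72.4% and 39% in positive and 50.8% and 41.5% in negative libraries, so that the groups overlap there. The share of hk1 is 88.5% and 89.3% in positive and 72.6% and 75% in negative libraries, that of eno3 is 64.2% and 68.3% against 42.6% and 47.8%, and that of ldha is 23.7% and 25.1% against 12.8% and 12.9%.

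The pyruvate dehydrogenase complex links both pathways. Neither of its E1 subunit genes was called. The alpha subunit gene pdha1a had 77.5 and 100 TPM in the positive libraries, against 106 and 89.5 TPM in the negative libraries (edgeR log2 fold change -0.12, SE 0.173, adjusted p 0.704). The beta subunit gene pdhb had 207 and 212 TPM in the positive libraries, against 242 and 217 TPM in the negative libraries. Both positive values were under both negative ones, but the log2 fold change of -0.11 (SE 0.166, adjusted p 0.707 by edgeR) was not called.

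Citrate synthase (cs), which joins acetyl-CoA to oxaloacetate, had 72.1 and 117 TPM in the positive libraries, against 113 and 81.2 TPM in the negative libraries. The groups overlapped fully and the log2 fold change was -0.02 (SE 0.226, adjusted p 0.965 by edgeR). Of the isocitrate dehydrogenases, idh2, which makes NADPH in mitochondria, was the most abundant member of the cycle at 342 and 313 TPM in the positive libraries, against 401 and 318 TPM in the negative libraries (edgeR log2 fold change -0.11, SE 0.178, adjusted p 0.743). The catalytic subunit gene of the NAD-dependent enzyme, idh3a, had 115 and 135 TPM in the positive libraries, against 147 and 130 TPM in the negative libraries (edgeR log2 fold change -0.13, SE 0.164, adjusted p 0.650). Its value was the lowest of the cycle, and the positive range overlapped the negative one.

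The 2-oxoglutarate dehydrogenase complex gave the 2 highest values of the cycle, neither of them called. Its E1 gene ogdha had 32.4 and 27.0 TPM in the positive libraries, against 26.2 and 24.9 TPM in the negative libraries, with the positive libraries above the negative ones (edgeR log2 fold change 0.41, SE 0.165, adjusted p 0.135). Its E2 gene dlst had 70.6 and 30.7 TPM in the positive libraries, against 38.0 and 30.7 TPM in the negative libraries. The difference in dlst was that of positive replicate 1, at 2.3 times the level of positive replicate 2. The log2 fold change of dlst was 0.63 (SE 0.356, adjusted p 0.280 by edgeR), and 1.15 and called without positive replicate 2. In that fit the lone positive library is assumed to vary like the negative pair. The call therefore does not take in the gap between the positive replicates.

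Further round the cycle, suclg1, the alpha subunit gene of succinyl-CoA synthetase, had 106 and 102 TPM in the positive libraries, against 118 and 107 TPM in the negative libraries (edgeR log2 fold change -0.08, SE 0.166, adjusted p 0.789). Both positive values of suclg1 were under both negative ones. Fumarase is carried by 2 IDs with the symbol fh, whose reads counting may have divided between them. ENSDARG00000075132 had 39.5 and 35.3 TPM in the positive libraries, against 39.8 and 27.7 TPM in the negative libraries (edgeR log2 fold change 0.18, SE 0.194, adjusted p 0.588). ENSDARG00000109774 had 8.58 and 7.49 TPM in the positive libraries, against 6.38 and 6.29 TPM in the negative libraries, above them in both replicates (edgeR log2 fold change 0.37, SE 0.186, adjusted p 0.224). Mitochondrial malate dehydrogenase (mdh2), which closes the cycle, had 55.2 and 60.9 TPM in the positive libraries, against 63.5 and 56.6 TPM in the negative libraries (edgeR log2 fold change -0.03, SE 0.163, adjusted p 0.936). The cytosolic form mdh1aa was not matched. The ID named MDH1 had 58.7 and 46.9 TPM in the positive libraries, against 79.1 and 64.6 TPM in the negative libraries (edgeR log2 fold change -0.43, SE 0.194, adjusted p 0.175).

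**Figure D3:**
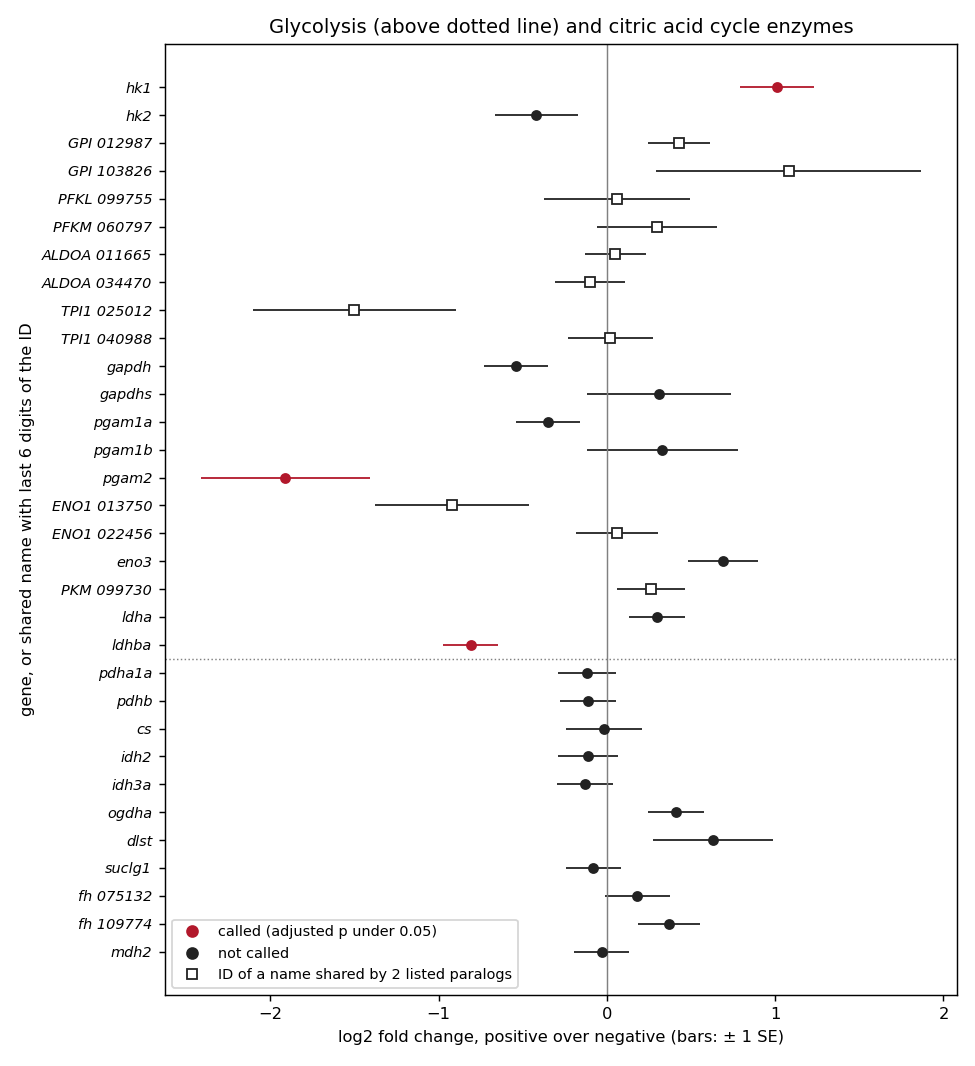
Log2 fold change, positive over negative, of the 32 member IDs tested, in pathway order with glycolysis above and the citric acid cycle below the dotted line; bars are ± 1 SE, red marks genes called by edgeR at an adjusted p under 0.05, and open squares are IDs that share a name. The called genes are hk1 at 1.01, pgam2 at -1.91 and ldhba at -0.81, and the cycle members lie between -0.13 and 0.63.

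As whole pathways the fractions overlapped when the pair IDs were included in glycolysis. The 24 glycolysis IDs, pairs included, summed to 1154 and 1263 TPM in the positive libraries and to 1278 and 1176 TPM in the negative libraries. Most of each sum was ALDOA ENSDARG00000011665, at 698 and 845 TPM in positive and 767 and 736 TPM in negative libraries. Without the pairs, the 10 glycolysis members summed to 351.4 and 324.9 TPM in positive libraries, against 403.2 and 353.6 TPM in negative libraries. There both positive sums were under both negative ones. The called gene ldhba alone held 72.8 and 75.8 TPM in positive, against 139 and 128 TPM in negative libraries. This order of the sums therefore cannot be read as one of the other members. The 11 cycle IDs summed to 1126 and 1141 TPM in the positive libraries and to 1301 and 1088 TPM in the negative libraries. With 2 libraries a group such sums were not tested.

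The 3 calls and the 4 members nearest to one, or most divided between replicates, were followed through 12 other fits. The fits keep the direction of hk1, ldhba, pgam2, eno3 and gapdh throughout. For gapdhs and dlst the direction depends on the positive library that is kept, and dlst was -0.16 without positive replicate 1, not called.

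**Figure D4:**
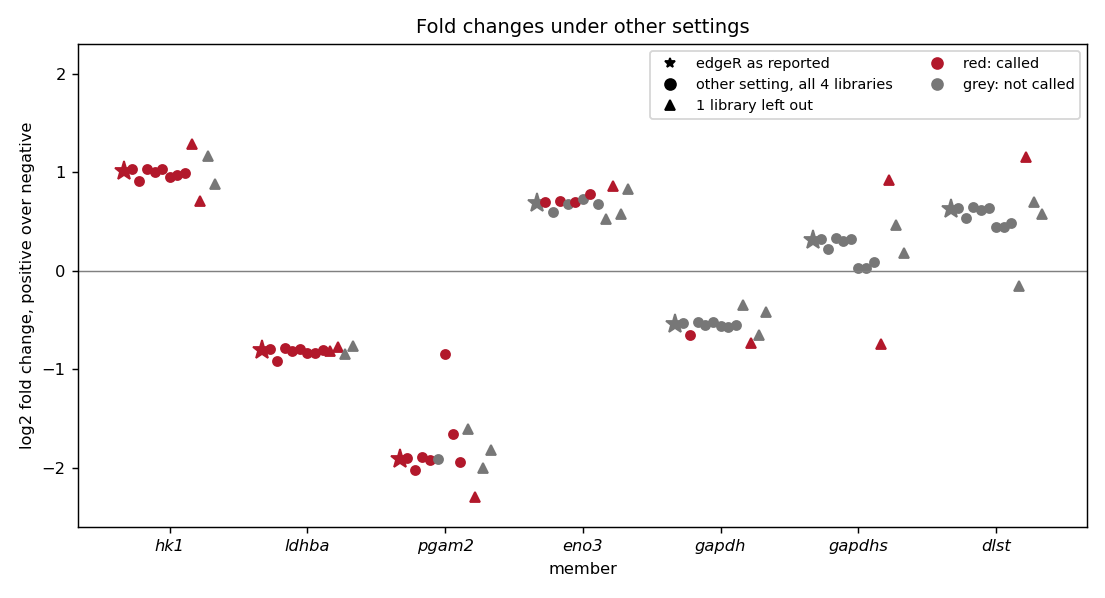
Log2 fold change, positive over negative, of 7 members in the reported edgeR fit (star), in 8 other settings with all 4 libraries (circles) and with 1 library left out (triangles); red marks a call at an adjusted p under 0.05. The values of ldhba stay between -0.92 and -0.77, while gapdhs reaches -0.74 and 0.92 as 1 or the other positive library is left out.

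Around the members, 9 lists of related genes held 93 tested genes. Of these 14 were called, 7 higher and 7 lower, beside 17.1% of all genes tested. Most called genes were weakly expressed, and 5 had the mean of at least 5 TPM set for naming. In the list of genes related to pyruvate dehydrogenase and the cycle, which also holds aco1 and idh1, 0 of 15 were called by edgeR, DESeq2 or limma. The median log2 fold change of these genes was -0.03. An unadjusted edgeR p under 0.05 was reached by 3 of them, a level that 30.2% of all genes tested passed. The malate-aspartate shuttle, which carries cytosolic NADH electrons into mitochondria, likewise had 0 of 5 called by edgeR, DESeq2 or limma, 1 at an unadjusted p under 0.05, and a median of -0.22.

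The gene pfkfb1 encodes a bifunctional enzyme that makes and breaks fructose 2,6-bisphosphate, the activator of phosphofructokinase. It was lower in positive cells, at 6.68 and 7.55 TPM in the positive libraries, against 20.9 and 15.6 TPM in the negative libraries (edgeR log2 fold change -1.33, SE 0.205, adjusted p 0.00233), and was called in 12 of 12 alternatives. The related pfkfb3 had a mean of 12.8 TPM in positive and 14.3 TPM in negative cells, and pfkfb4a had 7.93 and 7.15 TPM. Neither was called (edgeR log2 fold change 0.04, adjusted p 0.9, and 0.14, adjusted p 0.728). The scarce pfkfb2a was not called either (edgeR log2 fold change -0.81, adjusted p 0.388). The gluconeogenic fructose bisphosphatases moved in opposite directions. The first, fbp1a, was higher at 7.70 and 7.18 TPM in the positive libraries, against 4.57 and 2.93 TPM in the negative libraries (edgeR log2 fold change 1.03, SE 0.265, adjusted p 0.028). It was not called in either limma fit or when either negative library was left out. The other, fbp1b, was lower at 1.40 and 0.729 TPM in the positive libraries, against 3.96 and 4.95 TPM in the negative libraries (edgeR log2 fold change -2.04, adjusted p 0.00962). It is named after its values were seen, and its call was lost without negative replicate 2. Of the 9 genes tested in the list that holds pfkfb1, fbp1a and fbp1b, 1 was higher and 2 were lower. That is 33.3% of a short list, beside 17.1% of all genes tested.

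In the pentose phosphate pathway, which draws glucose 6-phosphate off for NADPH and ribose, 0 genes were higher and 1 of 6 (16.7%) was lower. This was rpia, ribose 5-phosphate isomerase, at 12 and 19.6 TPM in the positive libraries, against 30.5 and 29.2 TPM in the negative libraries (edgeR log2 fold change -0.91, SE 0.215, adjusted p 0.0192), a call lost when either negative library was left out. Of 11 glycogen genes 2 (18.2%) were higher and 0 lower, beside 17.1% of all genes tested called in either direction. Glycogen phosphorylase pygb, which frees glucose 1-phosphate from glycogen, was higher at 8.36 and 13.3 TPM in the positive libraries, against 6.65 and 3.18 TPM in the negative libraries (edgeR log2 fold change 1.18, SE 0.314, adjusted p 0.0321). Its replicates in each group lay further apart than the lower positive value did from the higher negative one. The gene pygb was not called in either limma fit or without negative replicate 2. GBE1 (ENSDARG00000029051), the glycogen branching enzyme, was under 0.5 TPM in every library (edgeR log2 fold change 2.09, adjusted p 0.0303). It is named after its values were seen, and was not called in limma on log2(TPM + 1), without positive replicate 2 or without negative replicate 1. The more abundant GBE1 ID, ENSDARG00000099524, had 0.817 and 0.782 TPM in the positive libraries, against 0.404 and 0.472 TPM in the negative libraries. That ID was not called (edgeR log2 fold change 0.92, adjusted p 0.18).

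Of 13 genes for glucose and lactate transport 1 (7.69%, beside 17.1% of all genes tested) was higher and 0 were lower. It was the lactate exporter named SLC16A3 (ENSDARG00000045051), at 1.73 and 2.42 TPM in the positive libraries, against 0.833 and 0.779 TPM in the negative libraries (edgeR log2 fold change 1.36, adjusted p 0.0127). Of 10 genes for the entry of pyruvate into mitochondria and its control, 0 were higher and 1 was lower, an ID named MPC2 (ENSDARG00000037679) of the mitochondrial pyruvate carrier. It had 1.39 and 2.04 TPM in the positive libraries, against 5.83 and 5 TPM in the negative libraries (edgeR log2 fold change -1.57, adjusted p 0.0137). The far more abundant MPC2 ID, ENSDARG00000024478, had 130 and 137 TPM in the positive libraries, against 125 and 129 TPM in the negative libraries (edgeR log2 fold change 0.08, adjusted p 0.806). SLC16A3 and the lower MPC2 ID are named after their values were seen, and both calls were lost when either negative library was left out.

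Hif and Myc are transcription factors known to raise glycolytic genes. Of 14 genes in their list 2 were higher and 1 was lower (21.4% called, beside 17.1% of all genes tested). An ID named MYC (ENSDARG00000045695) was lower at 16.1 and 12.7 TPM in the positive libraries, against 42.7 and 37.3 TPM in the negative libraries (edgeR log2 fold change -1.44, SE 0.201, adjusted p 0.00134), called in 12 of 12 alternatives. The more abundant MYC ID, ENSDARG00000007241, had 162 and 178 TPM in the positive libraries, against 196 and 190 TPM in the negative libraries, and was not called (edgeR log2 fold change -0.16, adjusted p 0.575).

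Hypoxia-inducible factor 1 alpha also has an abundant and a scarce paralog. The abundant hif1ab had 69.4 and 83 TPM in the positive libraries, against 91.3 and 66.9 TPM in the negative libraries (edgeR log2 fold change 0.00, adjusted p 0.990). The scarce hif1aa was higher, at 0.789 and 1.2 TPM in the positive libraries, against 0.164 and 0.0861 TPM in the negative libraries (edgeR log2 fold change 3.03, SE 0.514, adjusted p 0.0038). An ID named EPAS1 (ENSDARG00000057671), for hypoxia-inducible factor 2 alpha, was higher, at 0.855 and 1.02 TPM in the positive libraries, against 0.429 and 0.343 TPM in the negative libraries (edgeR log2 fold change 1.30, adjusted p 0.00943). The more abundant EPAS1 ID, ENSDARG00000008697, had 1.07 and 1.16 TPM in the positive libraries, against 1.89 and 1.43 TPM in the negative libraries, and was not called (edgeR log2 fold change -0.59, adjusted p 0.136). The hif1aa and EPAS1 calls are named after their values were seen, and the EPAS1 call was lost in limma on log2(TPM + 0.1) and when either negative library was left out. Of the 10 other glycolytic enzymes 1 was higher and 2 were lower (30% called, beside 17.1% of all genes tested). These were gck and hkdc1, given with the hexokinases, and the enolase gene eno4, at 0.549 and 0.322 TPM in the positive libraries, against 1.89 and 1.38 TPM in the negative libraries (edgeR log2 fold change -1.87, adjusted p 0.0151). The eno4 call, named after its values were seen, was lost when either negative library was left out.

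**Figure D5:**
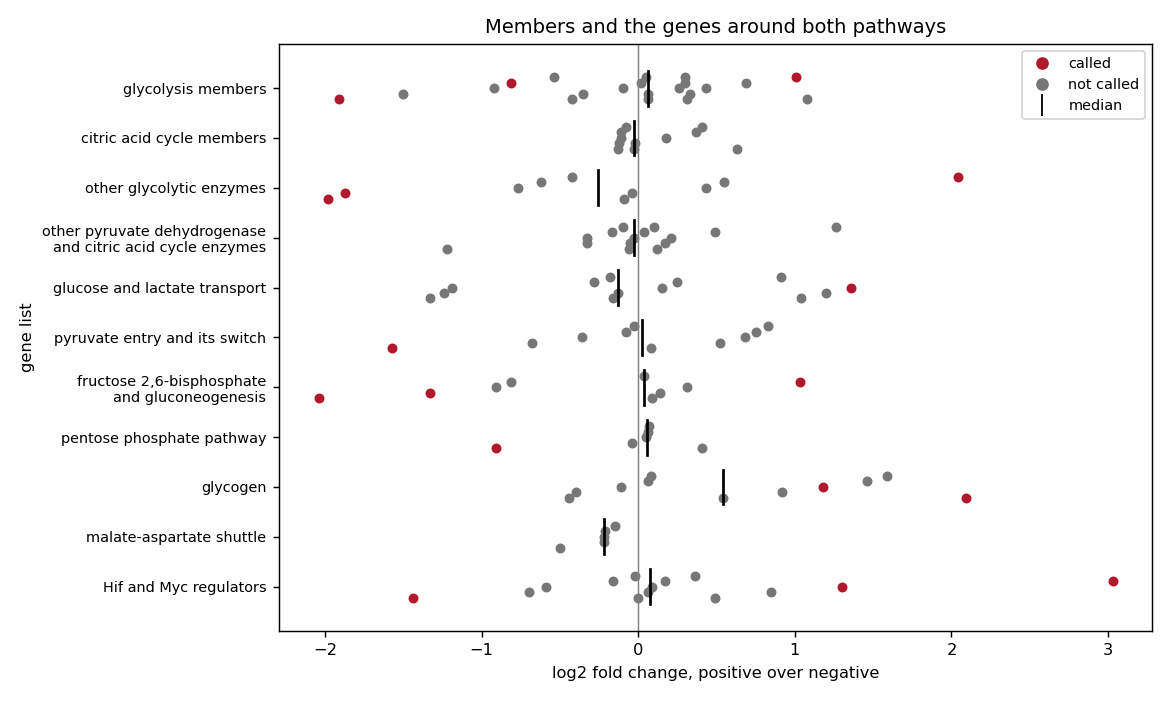
Log2 fold change, positive over negative, of each tested gene in the 2 member lists (glycolysis with the pair IDs) and in 9 lists of related genes; red marks a call by edgeR at an adjusted p under 0.05 and the black bar is the list's median. The medians of the lists run from -0.26 to 0.54, and in the glycolysis and glycogen lists some uncalled genes lie further from 0 than called ones.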

How the data were processed

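PolyA RNA of 4 libraries (about 50 ng each, both ends read for 50 nt, per the labels' protocols) had been summarised by the authors per Ensembl gene. Per the file headers the deposited table gives whole-number counts, taken as estimated counts rounded by the authors because 20 entries at 0 counts have a TPM above 0, and log2(TPM + 1). Salmon 1.2.1, BWA 0.7.12-r1039, bedtools and the builds Zv9, danRer7, GRCz11 and danRer11 are named in the submitters' processing notes, without their roles. Which build underlies the table, which annotation and whether strand was used are not given in the sources used, so no coordinates are printed. Molecular identifiers are not mentioned, so counts need not be independent molecules, and reads of similar paralogs may have been divided between IDs. TPM was recovered from the deposited log2 values. Names came from a table of Ensembl IDs, which named 23599 of the 25873 IDs, and synonyms from a table of RefSeq genes (assembly GRCz12tu).

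Counts were tested in R 4.3.3 with edgeR 4.0.16 (quasi-likelihood F test, TMM factors of 0.974 to 1.05, filterByExpr with a minimum count of 10 and a minimum total of 15, group as the only term). The SE of a log2 fold change is its size divided by the square root of F. The fit was tested on simulated data, with the same spread set for all genes and changes set only in genes with higher counts. That test says nothing of scarce members such as pgam2, or of those with replicates far apart. In alternatives, edgeR was run with RLE (DESeq2) or upper-quartile factors, unfiltered, with genes of 1 CPM or more in 2 libraries, blocked by replicate number, without each library in turn, and at an adjusted p under 0.01. DESeq2 1.42.0 (Wald test) and limma 3.58.1 (with a trend, on log2(TPM + 1) or log2(TPM + 0.1)) replaced it. Adding the 14 IDs that share a name was chosen after seeing the data. Every member is named. Of each related list, the called genes with the largest change are named, up to 3 in each direction, if their mean over the 4 libraries was at least 5 TPM. Members, lists and tests were chosen with earlier results of these data known.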

Additional observations from a re-analysis of the deposited data

How the results depend on the processing

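Over all genes an adjusted p under 0.01 gave 966 higher and 784 lower, and leaving out 1 library gave 852 to 2446 higher and 747 to 1846 lower. For the 10 glycolysis members, 2 were called higher with DESeq2 size factors, without a low-count filter, with DESeq2 (1 lower there) and with limma on log2(TPM + 0.1), the added gene being eno3. At an adjusted p under 0.01, 0 were higher and 1 lower. Leaving out 1 library gave 0 to 3 higher and 0 to 4 lower, with 0 of either when a negative library was left out, fits in which the lone library is assumed to vary like the positive pair. The glycolysis median was -0.25 to 0.04 when 1 library was left out. The median of the cycle members was -0.13 with upper-quartile factors, which move the median of all genes to -0.109, -0.06 in both limma fits, and -0.06 to 0.01 when 1 library was left out. In those fits 0 to 1 cycle members were called higher. The reversed value was gapdhs at -0.74 without positive replicate 1 (0.92 without positive replicate 2). With the IDs of shared names added, 1 glycolysis member was higher and 2 were lower, and the median was 0.06.

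Same-numbered libraries did not deviate together (correlation over genes -0.0923), and the labels do not say that the numbers pair the libraries. With the replicate number as a block, 1762 genes were higher and 1561 lower, and the glycolysis counts stayed at 1 and 2. Of 609 gene and alternative combinations for 51 members and related genes, 564 kept their side of the threshold, 31 lost a call, 13 gained one and 1 reversed. A reversal was counted only where a fit made a call. Among the 564, a further 31 had a value of the other sign or rounding to 0, called in neither fit. Leaving out 1 library moved the uncalled value of GPI ENSDARG00000103826 to 0.26 and 3.09, at 2 to 20 counts a library.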

Other observations

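Of 47 genes of the related lists with a mean of at least 5 TPM, 1 differed over 2-fold within the positive pair and 1 within the negative pair. The gap in the negative pair was that of pygb, called higher above, at 6.65 and 3.18 TPM. The gap in the positive pair was that of mycn, a Myc family gene chosen after its values were seen, which had 85.6 and 33.8 TPM in the positive libraries, against 61.5 and 57.0 TPM in the negative libraries (edgeR log2 fold change 0.06, adjusted p 0.939).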
